A study of Mus musculus with 4 samples.

Results

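The genes described here are the ligands, receptors, secreted binding proteins, Smads and Id genes of the TGF-beta and BMP pathways, as measured in mouse lung fibroblasts. They were chosen by gene symbol from a deposited table of 23444 symbols, which held 59 of them. Of these, 39 were at 1 FPKM or more (fragments per kilobase of transcript, adjusted for library size) in at least 1 library, as were 12561 symbols of the whole table. Just above that limit lay Smad9, with a highest value of 1.15 FPKM, and Acvr2b, with 1.16 FPKM, and just below it lay Bmpr1b, with 0.961 FPKM. The study profiled sorted Pdgfra+ lung fibroblasts of wild-type (WT) C57BL6 mice at 4 ages of lung development; Pdgfra is a receptor tyrosine kinase that marks many lung fibroblasts. The ages were embryonic days 16.5 (E16.5) and 18.5 (E18.5) and postnatal days 7 (P7, labelled P07) and 28 (P28), with 1 library per age, and no mutant, treated or sorted-negative sample was used here. The labels give neither the number of animals behind a library nor how the cells were sorted. With 1 library per age there is no spread between animals, so each difference below is one between libraries, with no test.

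Ligands of the TGF-beta family are secreted dimers that bring together type I and type II receptor kinases on the cell surface. TGF-beta and activin receptors phosphorylate Smad2 and Smad3, BMP receptors phosphorylate Smad1, Smad5 and Smad9, and both kinds of Smad enter the nucleus with Smad4. Smad6 and Smad7 inhibit the signal, Id genes are common targets of BMP signalling, and secreted proteins such as noggin and chordin bind ligands outside the cell. In the developing lung BMP4 takes part in branching of the airways, and TGF-beta signalling takes part in myofibroblast formation and in septation of the air spaces.

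The libraries differed in scale. The E18.5 library summed to 100231 FPKM, against 180010 to 220221 FPKM in the other 3 libraries, and 70.6% of the 12561 genes had their lowest deposited value there. Values are therefore given as deposited and, where it matters, after median-ratio scaling, which divides each library by its median ratio to the geometric mean of the 4 (factors of 1.15 at E16.5 and 0.582 at E18.5, then 1.38 at P7 and 1.08 at P28). Shares and ratios of genes within one library do not depend on this scale. Read totals cannot be had from FPKM, so depth is unknown, but the steps between the lowest values put the depth of E16.5 at about 1.42 times that of E18.5. A gene is called higher or lower below where log2(FPKM + 1) differed by 1 or more (2-fold) and the larger of both values was at least 5 FPKM. Folds quoted as "times" are plain ratios of FPKM.

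Markers of other cell types were detected in these libraries, at levels that differed between ages. All 10 fibroblast genes looked up (led by Mfap4, a microfibril glycoprotein) were at 1 FPKM or more in every library, and Pdgfra itself had 88.7 FPKM at E16.5 and 95.9 FPKM at E18.5, then 113 at P7 and 188 at P28. The 15 endothelial markers summed to 44.1 FPKM at E16.5 and 46.2 FPKM at E18.5, then 1275 at P7 and 318 at P28, with 9, 11, 15 and 15 of them at 1 FPKM or more, and all 15 were highest at P7 after scaling. The 12 leukocyte markers summed to 1589 FPKM at E16.5 and 81.1 FPKM at E18.5, then 20.5 at P7 and 5067 at P28. At P28 that sum came almost wholly from Lyz2, at 5062 FPKM, a lysozyme gene that alveolar epithelium also expresses, and 2 of 12 leukocyte markers were at 1 FPKM or more at P28. The 12 epithelial markers summed to 35.3 FPKM at E16.5 and 145 FPKM at E18.5, then 49.1 at P7 and 31009 at P28, where Scgb1a1 alone had 19258 FPKM. Sums for the 5 mesothelial markers listed, led by Upk3b, were 0.385, 6.002, 47.8 and 133 FPKM in order of age, and for the 8 pericyte markers, led by Pdgfrb, 27.5, 35.5, 71.0 and 24.9 FPKM. The 8 smooth muscle genes, led by Acta2, summed to 327, 141, 520 and 31.8 FPKM in order of age, and the 19 immediate early genes, led by Zfp36 and also raised by tissue handling, to 1486, 1379, 774 and 1349 FPKM. None of these markers was listed at 0 in any library. In such bulk samples fewer cells of a type and less RNA per cell cannot be told apart, and the part of these cells in the values below was not tested unless a value is given.

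**Figure D1:**
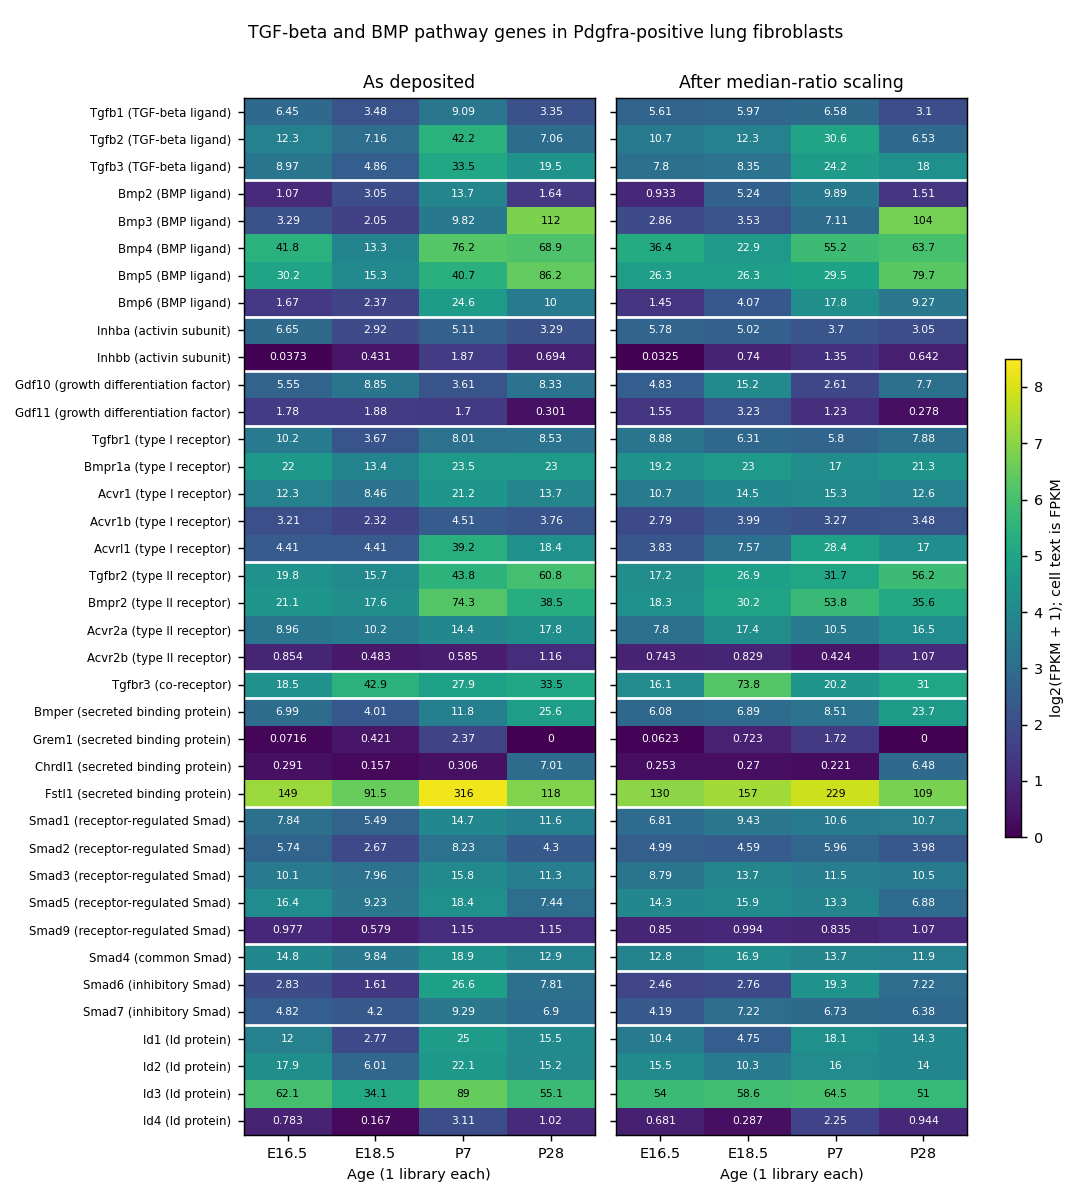
FPKM of the pathway genes reported here that were at 1 FPKM or more in any library, by class, at the 4 ages with 1 library each; colour is log2(FPKM + 1) and the text in each cell is FPKM, as deposited on the left and after median-ratio scaling on the right. Bmp3 stands out at P28 (112 FPKM as deposited), Fstl1 at P7 (316 FPKM) and Tgfbr3 at E18.5 (42.9 FPKM as deposited, 73.8 after scaling).

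The 3 TGF-beta ligands were all measured, and their order within a library changed by P28. Tgfb2 (GRCm38 chromosome 1, 186622792 to 186705989, minus strand) had 12.3 FPKM at E16.5 and 7.16 FPKM at E18.5, then 42.2 at P7 and 7.06 at P28. It was high at P7 and low in the other 3 libraries, and its P7 value was 3.44 times that of E16.5 as deposited and 2.87 times after scaling. Tgfb3 (chromosome 12, 86056745 to 86079041, minus strand) had 8.97 FPKM at E16.5 and 4.86 FPKM at E18.5, then 33.5 at P7 and 19.5 at P28. It was called higher both at P7 and at P28 against E16.5, at 3.73 and 2.18 times the E16.5 value, while its P28 value was not called different from P7. Tgfb1 (chromosome 7, 25687002 to 25705077, plus strand) had 6.45 FPKM at E16.5 and 3.48 FPKM at E18.5, then 9.09 at P7 and 3.35 at P28. Its P28 value was called lower than that of P7 as deposited (log2 difference -1.21) but not after scaling.

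Tgfb2 led the class at the first 3 ages, and Tgfb3 led it at P28. The share of Tgfb2 in the summed FPKM of the 3 ligands was 44.3% at E16.5 and 46.2% at E18.5, then 49.8% at P7 and 23.6% at P28. That of Tgfb3 was 32.4% at E16.5 and 31.4% at E18.5, then 39.5% at P7 and 65.2% at P28. The ratio of Tgfb3 to Tgfb2 was thus between 0.679 and 0.793 in the first 3 libraries and 2.76 in the P28 library. The share of Tgfb1 was 23.3% and 22.4% at the fetal ages and 10.7% and 11.2% at P7 and P28.

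Among the 10 BMP ligands listed, 5 reached 1 FPKM, and a different gene led at different ages. Bmp4, a ligand of lung branching, had 41.8 FPKM at E16.5 and 13.3 FPKM at E18.5, then 76.2 at P7 and 68.9 at P28. Bmp5 had 30.2 FPKM at E16.5 and 15.3 FPKM at E18.5, then 40.7 at P7 and 86.2 at P28. Bmp3 (chromosome 5, 98854415 to 98884396, plus strand) had 3.29 FPKM at E16.5 and 2.05 FPKM at E18.5, then 9.82 at P7 and 112 at P28. Bmp3 is an atypical member of the family that is known to oppose BMP signalling through type II receptors. Its P28 value was 34.1 times that of E16.5 and 11.4 times that of P7, and 36.2 and 14.6 times after scaling. Ranked among the 12561 genes of its library, Bmp3 lay at percentile 41.5 at E16.5 and 50.8 at E18.5, then 67.6 at P7 and 98.2 at P28.

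Of the summed BMP ligand FPKM, Bmp4 held 53.2% at E16.5 and 36.3% at E18.5, then 46.1% at P7 and 24.6% at P28. Bmp3 held 4.19% at E16.5 and 5.58% at E18.5, then 5.94% at P7 and 40.1% at P28. Bmp5 held 38.4%, 41.7%, 24.6% and 30.8% in order of age, so Bmp4 led at E16.5 and P7, Bmp5 at E18.5 and Bmp3 at P28. The ratio of Bmp5 to Bmp4 was 0.723 at E16.5 and 1.15 at E18.5, then 0.534 at P7 and 1.25 at P28. Exons of Bmp5 overlap those of the predicted gene Gm26903 on the opposite strand by up to 1878 bp, and the labels name no strand-specific step, so reads of the overlap cannot be assigned.

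Bmp6 and Bmp2 had low fetal values as deposited and their highest value at P7. Bmp6, a BMP also made by endothelium, had 1.67 FPKM at E16.5 and 2.37 FPKM at E18.5, then 24.6 at P7 and 10.03 at P28. Bmp2 had 1.07 FPKM at E16.5 and 3.05 FPKM at E18.5, then 13.7 at P7 and 1.64 at P28. At P7 they stood at 14.7 and 12.7 times their E16.5 values, and 12.2 and 10.6 times after scaling. Scaled values of Bmp2 were 0.933 FPKM at E16.5 and 5.24 FPKM at E18.5, then 9.89 at P7 and 1.51 at P28. On that scale Bmp2 was called higher at E18.5 than at E16.5, and P7 was not called different from E18.5. Bmp6 was called higher at P7 than at E18.5 under both scales. Bmp2 was back near its E16.5 level at P28, while Bmp6 at P28 was still 5.998 times its E16.5 value. The summed endothelial markers were highest at P7 as well. An exon of Bmp6 on the plus strand overlaps Txndc5 on the minus strand by up to 224 bp, and Txndc5 had 14.9 FPKM at E16.5 and 9.70 FPKM at E18.5, then 22.2 at P7 and 23.7 at P28. Of the other BMP ligands, Bmp7 reached 0.493 FPKM at most, Bmp10 0.260, Bmp8b 0.174 and Bmp15 0.0706, and Bmp8a was listed at 0 in every library.

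**Figure D2:**
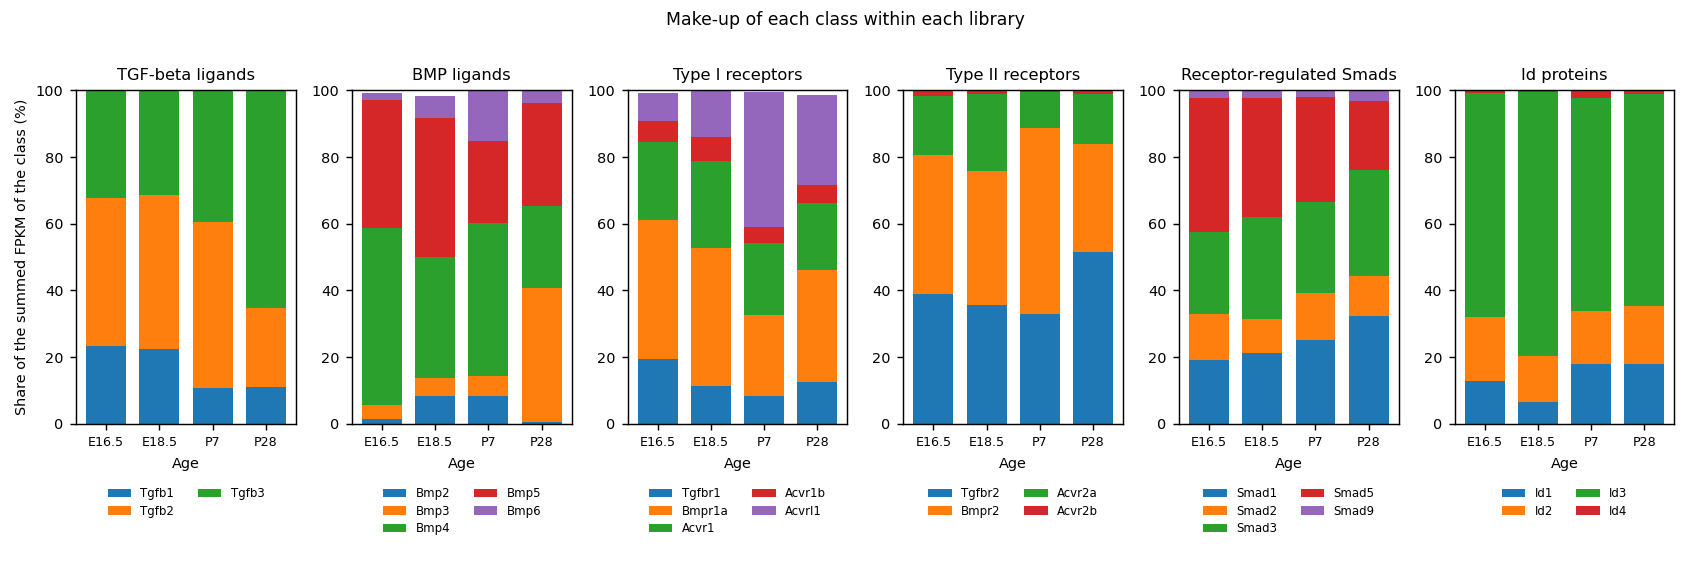
Share (%) of each gene in the summed FPKM of its class within each library, for 6 classes at the 4 ages; bars fall just short of 100% where genes under 1 FPKM hold the rest. Tgfb3 holds 65.2% of the TGF-beta ligands and Bmp3 40.1% of the BMP ligands at P28, and Acvrl1 holds 40.5% of the type I receptors at P7.

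Activin subunits were low. Inhba, which forms activin A, had 6.65 FPKM at E16.5 and 2.92 FPKM at E18.5, then 5.11 at P7 and 3.29 at P28, and after scaling it was the 1 of the 39 genes that was lower at each successive age (5.78, 5.02, 3.70 and 3.05 FPKM). Inhbb, the subunit of activin B, had 0.0373 FPKM at E16.5 and at most 1.87, at P7. Of 10 growth differentiation factors listed, 2 reached 1 FPKM. Gdf10, a relative of Bmp3, had 5.55 FPKM at E16.5 and 8.85 FPKM at E18.5, then 3.61 at P7 and 8.33 at P28. It was called lower at P7 than at E18.5 and higher at P28 than at P7, under both scales. Gdf11, a regulator of axial patterning, had 1.78, 1.88 and 1.70 FPKM at the first 3 ages and 0.301 FPKM at P28, all too low for a call, and the highest value of the other 8 was 0.414 FPKM, for Gdf2.

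Of 7 type I receptors 5 reached 1 FPKM. Bmpr1a, the main BMP type I receptor of many tissues, had 22.0 FPKM at E16.5 and 13.4 FPKM at E18.5, then 23.5 at P7 and 23.0 at P28, and was called in none of the 5 comparisons. Acvr1, another BMP type I receptor, had 12.3 FPKM at E16.5 and 8.46 FPKM at E18.5, then 21.2 at P7 and 13.7 at P28. Its 1 call, higher at P7 than at E18.5, was seen as deposited only. Tgfbr1, the TGF-beta type I receptor, had 10.2 FPKM at E16.5 and 3.67 FPKM at E18.5, then 8.01 at P7 and 8.53 at P28. It was called lower at E18.5 than at E16.5 as deposited but not after scaling. Acvr1b, the activin type I receptor, stayed between 2.32 and 4.51 FPKM, and Acvr1c reached 0.0271 FPKM.

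Acvrl1 departed from its class. This receptor for circulating BMPs, known mainly from endothelium (chromosome 15, 101128522 to 101145336, plus strand), had 4.41 FPKM at E16.5 and 4.41 FPKM at E18.5, then 39.2 at P7 and 18.4 at P28. As deposited the fetal libraries were low and nearly equal, P7 was high and P28 lay between; after scaling E18.5 (7.57 FPKM) lay above E16.5 (3.83 FPKM). The log2 difference was 2.89 for P7 against E16.5 (2.60 after scaling). Its share of type I receptor FPKM was 8.38% at E16.5 and 13.6% at E18.5, then 40.5% at P7 and 26.9% at P28, while that of Bmpr1a was 41.9%, 41.4%, 24.2% and 33.7%. The endothelial cadherin Cdh5 was also highest at P7, and by more, with 4.999 FPKM at E16.5 and 5.79 FPKM at E18.5, then 276 at P7 and 67.3 at P28. The ratio of Acvrl1 to Cdh5 was accordingly 0.882 at E16.5 and 0.761 at E18.5, then 0.142 at P7 and 0.273 at P28. The direction of such a ratio depends on the marker. Erg, another of the endothelial markers, had 8.30 FPKM at E16.5 and 5.01 FPKM at E18.5, then 46.5 at P7 and 6.96 at P28. Relative to Erg, Acvrl1 was higher at P7 and at P28 than at E16.5.

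All 4 type II receptors reached 1 FPKM. Tgfbr2, the TGF-beta type II receptor (chromosome 9, 116084293 to 116175360, minus strand), had 19.8 FPKM at E16.5 and 15.7 FPKM at E18.5, then 43.8 at P7 and 60.8 at P28. At P28 it was 3.07 times its E16.5 value. After scaling it was higher at each successive age (17.2, 26.9, 31.7 and 56.2 FPKM), 1 of 5 such genes with Bmp3, Bmp5, Bmper and Smad1. The ratio of Tgfbr2 to its partner Tgfbr1 was 1.94 at E16.5 and 4.27 at E18.5, then 5.47 at P7 and 7.13 at P28, an order that holds on any scale. Bmpr2, the BMP type II receptor, had 21.1 FPKM at E16.5 and 17.6 FPKM at E18.5, then 74.3 at P7 and 38.5 at P28, and was called higher at P7 than at E16.5 under both scales. Bmpr2 made up 55.8% of type II receptor FPKM at P7, and Tgfbr2 made up 51.4% at P28. Acvr2a, an activin and BMP type II receptor, had 8.96 FPKM at E16.5 and 10.2 FPKM at E18.5, then 14.4 at P7 and 17.8 at P28. Of the 39 genes it was the 1 that was higher at each successive age as deposited, though after scaling its E18.5 value was the highest. Its exons overlap Orc4 on the opposite strand by up to 446 bp, and Orc4 had 2.38 to 3.97 FPKM. Acvr2b reached 1.16 FPKM at P28.

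The co-receptor Tgfbr3 (betaglycan, which presents TGF-beta2 to the signalling receptors; chromosome 5, 107106570 to 107289629, minus strand) had 18.5 FPKM at E16.5 and 42.9 FPKM at E18.5, then 27.9 at P7 and 33.5 at P28. It was the 1 pathway gene called higher at E18.5 than at E16.5 as deposited, at 2.32 times, although most genes had their lowest value in that library. After scaling the value was 4.59 times that of E16.5, and Tgfbr3 was then also called lower at P7 than at E18.5 (log2 difference -1.82). Among the genes of its library it ranked at percentile 86.4 at E16.5 and 97.5 at E18.5, then 89.3 at P7 and 93.0 at P28. The ratio of Tgfbr3 to Tgfbr2 was 0.934 at E16.5 and 2.74 at E18.5, then 0.638 at P7 and 0.551 at P28. Its exons overlap those of Gm43422 on the same strand by up to 297 bp.

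Of 10 secreted binding proteins 5 reached 1 FPKM, and Fstl1 was far the most abundant. Fstl1, a follistatin-like glycoprotein that is known to restrain BMP4 in the mouse lung, had 149 FPKM at E16.5 and 91.5 FPKM at E18.5, then 316 at P7 and 118 at P28. It stood above percentile 98 in every library, was called higher at P7 than at E16.5 as deposited only, and was called lower at P28 than at P7 under both scales. Bmper, which binds BMPs and can both enhance and block them (chromosome 9, 23223076 to 23485200, plus strand), had 6.99 FPKM at E16.5 and 4.01 FPKM at E18.5, then 11.8 at P7 and 25.6 at P28. Its P28 value was 3.66 times that of E16.5 and 2.18 times that of P7.

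Chrdl1, a chordin-like BMP antagonist (chromosome X, 143285674 to 143394262, minus strand), had 0.291 FPKM at E16.5 and 0.157 FPKM at E18.5, then 0.306 at P7 and 7.01 at P28. It was low in the first 3 libraries and stood at percentile 63.4 at P28, with a log2 difference of 2.62 against P7. Grem1, an antagonist of BMP2 and BMP4, had 0.0716 FPKM at E16.5, 0.421 at E18.5 and 2.37 at P7, and was listed at 0 at P28. Noggin (Nog) had at most 0.603 FPKM, chordin (Chrd) 0.442, follistatin (Fst) 0.571 and Fstl3 0.548 FPKM, and Chrdl2 was at most 0.0309 FPKM.

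The receptor-regulated Smads had no call after scaling in any of the 5 comparisons, although Smad5 then spanned 2.30 times (15.9 FPKM at E18.5 and 6.88 at P28). Smad3 had 10.1 FPKM at E16.5 and 7.96 FPKM at E18.5, then 15.8 at P7 and 11.3 at P28, and Smad2 had 5.74, 2.67, 8.23 and 4.30 FPKM in order of age. Smad1 had 7.84 FPKM at E16.5 and 5.49 FPKM at E18.5, then 14.7 at P7 and 11.6 at P28. Smad5 had 16.4 FPKM at E16.5 and 9.23 FPKM at E18.5, then 18.4 at P7 and 7.44 at P28. The BMP Smads thus changed order: Smad5 led at the first 3 ages and Smad1 at P28, with a ratio of Smad1 to Smad5 of 0.476, 0.595, 0.7999 and 1.56 in order of age. Smad5 was called lower at P28 than at E16.5 as deposited (log2 difference -1.05) but not after scaling. The shared partner Smad4 had 14.8 FPKM at E16.5 and 9.84 FPKM at E18.5, then 18.9 at P7 and 12.9 at P28, with no call, and Smad9 stayed at or below 1.15 FPKM.

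The inhibitory Smads differed from each other. Smad7 had 4.82 FPKM at E16.5 and 4.20 FPKM at E18.5, then 9.29 at P7 and 6.90 at P28, with no call. Smad6, which mainly blocks BMP signals (chromosome 9, 63953076 to 64022059, minus strand), had 2.83 FPKM at E16.5 and 1.61 FPKM at E18.5, then 26.6 at P7 and 7.81 at P28. P7 was high, at 9.42 times the E16.5 value as deposited and 7.85 times after scaling. The fetal libraries were low and P28 lay between, at 2.76 times the E16.5 value as deposited and 2.94 times after scaling. The ratio of Smad6 to Smad7 was 0.586 at E16.5 and 0.383 at E18.5, then 2.87 at P7 and 1.13 at P28. Endothelium is a known site of Smad6 expression, and the ratio of Smad6 to Cdh5 was 0.565 at E16.5 and 0.278 at E18.5, then 0.0966 at P7 and 0.116 at P28. Relative to the endothelial marker Erg, by contrast, Smad6 was higher at P7 and at P28 than at E16.5.

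Id genes encode inhibitors of basic helix-loop-helix factors. Id3 had 62.1 FPKM at E16.5 and 34.1 FPKM at E18.5, then 89.0 at P7 and 55.1 at P28, and held 63.5% to 79.2% of the summed Id FPKM. After scaling its 4 values lay between 51.0 and 64.5 FPKM, so its deposited spread of 2.61 times became 1.27 times. Id1 had 11.99 FPKM at E16.5 and 2.77 FPKM at E18.5, then 25.0 at P7 and 15.5 at P28. It was low at E18.5 relative to Id3 as well, whatever the scale: the ratio of Id1 to Id3 was 0.193 at E16.5 and 0.0811 at E18.5, then 0.280 at P7 and 0.281 at P28. Id2 had 17.9 FPKM at E16.5 and 6.01 FPKM at E18.5, then 22.1 at P7 and 15.2 at P28, and Id4 had 0.783, 0.167, 3.11 and 1.02 FPKM. Id1 was called higher at P7 than at E18.5 under both scales, and its call as lower at E18.5 than at E16.5 was lost after scaling, as was that of Id2.

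Promoter sequence is shown for Smad6, which had the largest difference in log2(FPKM + 1) of the 39 genes for P7 against E18.5, for the 3 Id genes held in the RefSeq promoter table (GRCm38.p6), and for Tgfb2. Each runs from 250 bases before the annotated start to 30 bases after it, 5′ to 3′ on the gene's strand. Capitals mark GTCT or its complement AGAC, the core letters bound by Smad3 and Smad4, and GGCGCC, the core of a site bound by Smad1 and Smad5.
Smad6 (chr9:64022030-64022309, minus strand): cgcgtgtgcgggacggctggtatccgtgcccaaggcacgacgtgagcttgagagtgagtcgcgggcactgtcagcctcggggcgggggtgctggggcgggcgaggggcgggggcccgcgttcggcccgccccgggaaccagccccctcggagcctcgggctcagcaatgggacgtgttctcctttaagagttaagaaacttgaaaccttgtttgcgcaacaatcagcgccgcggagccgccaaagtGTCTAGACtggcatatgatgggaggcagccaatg
Id2 (chr12:25096063-25096342, minus strand): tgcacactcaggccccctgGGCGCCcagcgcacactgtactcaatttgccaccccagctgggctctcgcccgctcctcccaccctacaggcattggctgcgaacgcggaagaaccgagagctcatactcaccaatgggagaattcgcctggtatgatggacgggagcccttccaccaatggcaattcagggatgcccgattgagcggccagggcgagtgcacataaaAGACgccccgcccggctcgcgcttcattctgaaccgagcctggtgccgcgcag
Id3 (chr4:136143572-136143851, plus strand): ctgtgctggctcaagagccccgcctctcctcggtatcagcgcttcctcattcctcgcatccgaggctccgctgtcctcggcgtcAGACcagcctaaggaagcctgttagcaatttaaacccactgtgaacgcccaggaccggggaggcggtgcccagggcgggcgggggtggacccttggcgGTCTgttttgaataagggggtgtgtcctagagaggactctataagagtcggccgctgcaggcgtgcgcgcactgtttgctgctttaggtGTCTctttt
Id4 (chr13:48260866-48261145, plus strand): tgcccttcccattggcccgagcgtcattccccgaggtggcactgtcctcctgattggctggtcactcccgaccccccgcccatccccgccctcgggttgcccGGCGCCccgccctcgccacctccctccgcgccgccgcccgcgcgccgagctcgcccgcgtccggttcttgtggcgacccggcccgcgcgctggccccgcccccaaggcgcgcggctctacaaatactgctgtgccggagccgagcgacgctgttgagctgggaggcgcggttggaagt
Tgfb2 (chr1:186705960-186706239, minus strand): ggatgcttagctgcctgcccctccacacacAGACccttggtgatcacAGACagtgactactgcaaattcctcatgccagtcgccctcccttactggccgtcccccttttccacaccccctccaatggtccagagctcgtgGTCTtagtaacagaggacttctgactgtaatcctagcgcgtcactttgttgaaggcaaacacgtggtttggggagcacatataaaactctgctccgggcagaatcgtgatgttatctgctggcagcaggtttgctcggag

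The Smad6 window held GTCTAGAC, in which GTCT and AGAC meet, from 4 bases before the annotated start to the fourth base of the transcript. Of 32851 promoter windows of the same length, 63 (0.192%) held GTCTAGAC, and of 48 windows for 40 of the 59 pathway genes, that of Smad6 was the 1 that did. GTCT on either strand was in 86.2% of all windows and in 41 of the 48, so its presence in Id2, Id3 and Tgfb2 is common. GGCGCC was in 10.9% of all windows and in 13 of the 48, Id2 and Id4 among them. The other motifs searched on both strands were TGGCGCC, in 3.68% of all windows and 1 of the 48, GGCNCC, in 53.2% and 37, and CAGCCT, in 27.5% and 10. GGCGCC lies within GGCNCC and TGGCGCC. A match describes letters only, and no binding was measured here.

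P7 was compared with E16.5, a span across birth. The pathway genes called higher were Bmp6, Acvrl1, Smad6, Bmp2, Tgfb3, Bmpr2, Tgfb2, Bmp3, Tgfbr2 and Fstl1, 10 of 39 (25.6%), against 8.84% of all 12561 genes. After scaling Tgfbr2 and Fstl1 were no longer called, leaving 8 of 39 (20.5%), against 6.02% of all genes. As deposited no pathway gene was called lower, against 3.75% of all genes, and after scaling none was, against 4.71%. The median log2 difference was 0.63 over the 39 genes and 0.16 over all genes, or 0.38 and -0.03 after scaling. Of the 10 genes, Acvrl1, Smad6, Bmp6 and Bmpr2 are known from endothelium, whose summed markers were 1275 FPKM at P7 and 44.1 at E16.5. The ratio of Bmpr2 to Cdh5 was 4.21 at E16.5 and 3.04 at E18.5, then 0.269 at P7 and 0.572 at P28. That of Bmp6 to Cdh5 was 0.335, 0.409, 0.0892 and 0.149 in order of age. These ratios depend on the marker chosen, since Erg had 8.30 FPKM at E16.5 and 46.5 at P7. Relative to Erg, Acvrl1, Smad6 and Bmp6 were higher at P7 than at E16.5, and Bmpr2 was lower. The part of endothelial cells in the P7 values of any of the 10 genes was not tested.

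P28 was compared with P7, the span in which alveoli finish forming. Bmp3, Chrdl1, Bmp5, Bmper and Gdf10 were called higher, 5 of 39 (12.8%), against 5.95% of all genes, and the same 5 were called after scaling, against 7.40%. As deposited Bmp2, Tgfb2, Smad6, Fstl1, Bmp6, Tgfb1, Smad5 and Acvrl1 were called lower, 8 of 39 (20.5%), against 9.57% of all genes. After scaling Bmp2, Tgfb2, Smad6 and Fstl1 were, 4 of 39 (10.3%), against 5.21%. The median log2 difference was -0.51 over the 39 genes and -0.23 over all genes, or -0.19 and 0.03 after scaling. By class, the 5 higher genes were ligands (Bmp3, Bmp5 and Gdf10) and secreted binding proteins (Bmper and Chrdl1), and the binding protein Fstl1 and the inhibitor Smad6 were lower under both scales. Smooth muscle genes summed to 31.8 FPKM at P28 and 520 at P7, and epithelial markers to 31009 FPKM at P28 and 49.1 at P7.

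Over the whole course, P28 against E16.5, Bmp3, Chrdl1, Bmp6, Acvrl1, Bmper, Tgfbr2, Bmp5, Smad6 and Tgfb3 were called higher, 9 of 39 (23.1%), against 10.1% of all genes. The same 9 were called after scaling, against 10.4%. Smad5 was the 1 gene called lower as deposited (2.56%), against 9.51% of all genes, and after scaling none was, against 7.92%. The median log2 difference was 0.22 over the 39 genes and -0.03 over all genes, or 0.25 and 0.03 after scaling. This comparison shares a library with each of those above, so their counts are not independent.

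**Figure D3:**
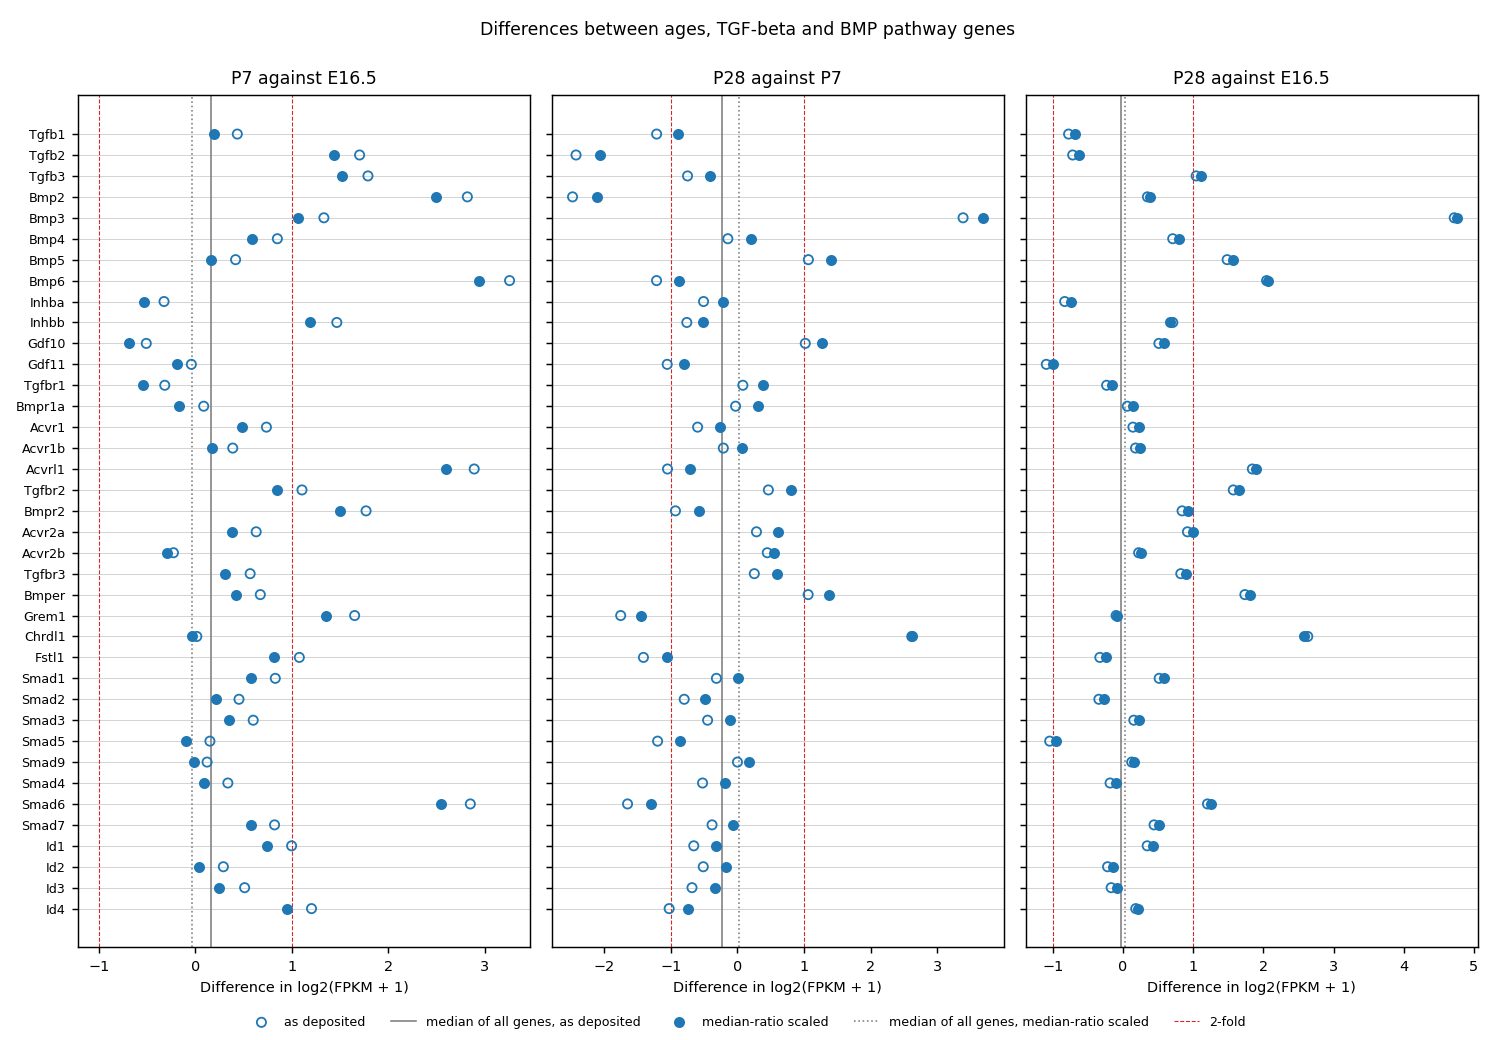
Difference in log2(FPKM + 1) of each of these pathway genes for P7 against E16.5, P28 against P7 and P28 against E16.5, as deposited (open points) and after median-ratio scaling (filled points); grey lines are medians of all 12561 genes and red dashed lines mark 2-fold. Bmp3 lies at 4.72 for P28 against E16.5, and Tgfb2 lies right of the 2-fold line for P7 against E16.5 and left of it for P28 against P7.

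The comparisons that involve E18.5 depend on its scale. For E18.5 against E16.5, Tgfbr3 was the 1 gene called higher as deposited (2.56%), against 1.11% of all genes, and Bmp4, Id1, Id2 and Tgfbr1 were called lower (10.3%), against 22.6%. After scaling Tgfbr3, Bmp2, Gdf10 and Acvr2a were called higher (10.3%), against 4.48% of all genes, and none lower, against 5.83%. For P7 against E18.5, 20 of 39 genes (51.3%) were called higher as deposited, against 33.3% of all genes, and Gdf10 was the 1 called lower, against 1.52%. After scaling 7 of 39 (17.9%) were called higher, against 7.18%, and Gdf10 and Tgfbr3 lower (5.13%), against 5.86%. The 7 were Smad6, Bmp6, Acvrl1, Id1, Tgfb3, Tgfb2 and Bmp4, all among the 20 as well. Medians over the 39 genes were -0.49 for E18.5 against E16.5 (all genes -0.71) and 1.25 for P7 against E18.5 (0.92), or 0.25 (-0.03) and 0.16 (0.04) after scaling.

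By age of the highest value, P7 held 26 of the 39 genes (66.7%) as deposited, against 42.3% of all genes, and 17 (43.6%) after scaling, against 19.5%. E16.5 held the highest value of 2 genes, Inhba and Tgfbr1, under both scales, against 27.3% of all genes as deposited and 26.2% after scaling. E18.5 held the lowest value of 28 genes (71.8%) as deposited, near the 70.6% of all genes. After scaling it held that of 4 genes (10.3%), Bmp4, Id1, Id2 and Id4, against 29.4% of all genes, and E16.5 held that of 19 (48.7%), against 23.7% of all genes.

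**Figure D4:**
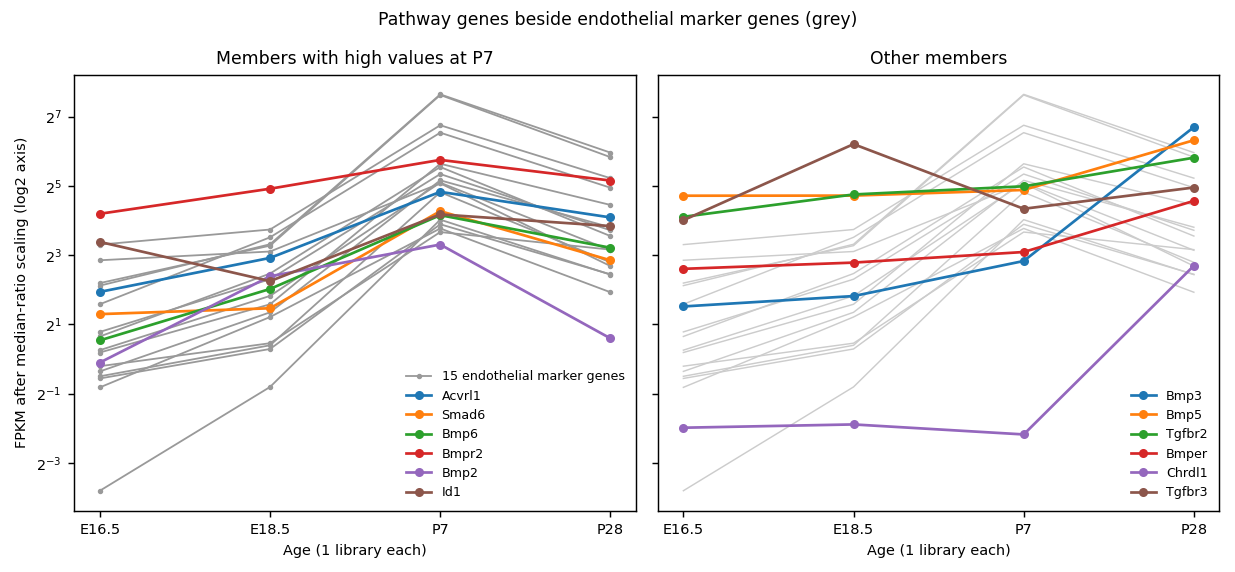
FPKM after median-ratio scaling on a log2 axis at the 4 ages, 1 library each: left, 6 pathway genes with high values at P7 over the 15 endothelial markers (grey lines with dots); right, 6 other pathway genes over the same markers. Acvrl1, Smad6, Bmp6 and the markers are highest at P7, while Bmp3, Bmp5, Tgfbr2, Bmper and Chrdl1 are highest at P28 and Tgfbr3 at E18.5.

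Other genes of the pathway were taken from a list of 75, of which 58 reached 1 FPKM. For P7 against E16.5, 11 of the 58 (19.0%) were called higher under both scales, against 6.02% of all genes, and 2 (3.45%) lower, against 3.45%. For P28 against P7, 4 (6.90%) were higher, against 5.76%, and 6 (10.3%) lower, against 5.21%. For P28 against E16.5, 11 (19.0%) were higher, against 9.82%, and 8 (13.8%) lower, against 7.92%. For E18.5 against E16.5, 3 (5.17%) were higher, against 1.11%, and 2 (3.45%) lower, against 5.83%. For P7 against E18.5, 7 (12.1%) were higher, against 7.18%, and 3 (5.17%) lower, against 1.52%. Latent TGF-beta binding proteins hold the ligand in the matrix. Ltbp2 had 14.4 FPKM at E16.5 and 41.7 FPKM at E18.5, then 122 at P7 and 5.90 at P28. Unlike Tgfb2, it was called higher at E18.5 than at E16.5 under both scales. Its log2 difference for P7 against E18.5 was 1.53 as deposited but 0.30 after scaling, where it was not called. Ltbp4 had 25.5, 43.9, 75.4 and 190.2 FPKM and Ltbp1 9.87, 6.29, 15.4 and 35.3 FPKM in order of age. Thbs1, a thrombospondin that can activate latent TGF-beta, had 170.0 FPKM at E16.5 and 167 FPKM at E18.5, then 68.9 at P7 and 37.9 at P28. The serine protease Htra1 had 14.9, 38.4, 104 and 10.2 FPKM. Lrrc32, which tethers latent TGF-beta to the cell surface, had 1.72, 1.25, 8.39 and 6.41 FPKM, and Nrros, which does so in myeloid cells, 7.40, 0.648, 6.36 and 1.10 FPKM.

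Endoglin (Eng), an endothelial co-receptor of Acvrl1, had 7.97 FPKM at E16.5 and 10.5 FPKM at E18.5, then 66.6 at P7 and 18.3 at P28, highest at P7 like the endothelial markers. Of the 12 other ligands, co-receptors and antagonists at 1 FPKM or more, 5 were called higher at P28 than at E16.5 under both scales. These were Eng, Twsg1, Nbl1, Crim1 and Vasn (41.7% of the 12, against 9.82% of all genes). None was called lower, against 7.92% of all genes. Log2 differences of the rest ran from -1.33 (Kcp, named after its value was seen) to 1.11. Both ends were genes that stayed under the 5 FPKM needed for a call. Twsg1, Nbl1 and Crim1 encode proteins that bind BMPs. Twsg1 had 35.8 FPKM at E16.5 and 27.8 FPKM at E18.5, then 53.8 at P7 and 99.97 at P28, Nbl1 had 10.6, 7.69, 24.5 and 49.6 FPKM, and Crim1 had 2.53, 3.63, 15.3 and 13.1 FPKM. Vasn, a surface protein that binds TGF-beta, had 5.14, 6.59, 5.37 and 14.3 FPKM in order of age.

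Target genes did not share 1 pattern. Tgfbi, a matrix protein induced by TGF-beta, had 214 FPKM at E16.5 and 314 FPKM at E18.5, then 469 at P7 and 13.3 at P28, and periostin (Postn) had 33.7, 59.6, 205 and 10.5 FPKM. Both were lowest at P28, as were Tgfb1 and Tgfb2. After scaling the log2 difference of Tgfbi was 1.53 for E18.5 against E16.5 and -0.67 for P7 against E18.5. Its highest value was then at E18.5. Ctgf, a matricellular growth factor, had 15.3, 5.19, 28.3 and 45.3 FPKM, highest at P28. Hey1, also a Notch target, had 8.37, 2.40, 42.3 and 20.8 FPKM in order of age, Cdkn1a 19.1, 22.0, 7.41 and 25.1 FPKM, and Zfp423 8.78, 1.55, 7.09 and 5.38 FPKM. Of the 23 intracellular regulators, the corepressor Ski had 28.3, 22.4, 70.1 and 37.3 FPKM and Ldlrad4, an inhibitor of TGF-beta signalling, 3.45, 3.09, 17.9 and 4.36 FPKM. Lower at P28 than at E16.5 were Tgif1, another corepressor (6.03 FPKM at P28 and 17.9 at E16.5), Strap (15.1 and 35.4) and Tab2 (21.2 and 46.3). Tob1 was called higher at P28 (28.8 FPKM) than at E16.5 (9.24), Xiap was called higher at P7 (23.6 FPKM) than at E16.5 (9.12), and Fkbp1a was called higher at P7 (199 FPKM) than at E18.5 (38.9).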

How the data were processed

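RNA of Pdgfra-positive lung cells was sequenced at 4 ages, with 1 library each. Per the labels, total RNA was extracted with a QIAGEN kit, made into cDNA and into Nextera XT libraries read as paired ends. Per the file headers, the authors deposited FPKM. TopHat and TopHat2 2.0.9 and the builds GRCm38 and mm10 are named in the submitters' processing notes, and which program made the FPKM is not given in the sources. Raw counts were not used here.

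Where 258 symbols had several entries, these were summed (none was a pathway gene), leaving 23444 symbols of 23931 entries. Differences are in log2(FPKM + 1), which understates those of low genes. A call needs a difference of at least 1 with 5 FPKM or more in the higher library. Median-ratio factors came from the 7930 genes that reached 1 FPKM in each library. No test was run, since each age has 1 library, and the 5 comparisons share libraries. A listed 0 may be a failed estimate.

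The genes and lists were chosen with earlier results of these data known. All genes matching the naming pattern may be named, with other pathway genes called alike under both scales in any comparison. Pdgfra and the most abundant gene of each marker list may be named too. Genes that overlap a pathway gene are named beyond that rule, as is Erg, which was named after its values were seen. A pathway gene and another gene of the pathway are counted but not reported here by name. Coordinates were looked up by symbol in GENCODE M21 (GRCm38). They are given for genes that results turn on; of 36 pathway genes at 1 FPKM or more with positions looked up, 11 had an exon overlapping another gene. Promoters came from RefSeq (GRCm38.p6); the motifs were chosen after the expression values were known. The scaling and calls were checked on simulated data with 200 altered genes. Apart from those genes, a change of scale and small noise, the simulated libraries were alike. The check therefore does not cover libraries that differ as widely as these. Alternatives were 2 other scalings, a 4-fold threshold, a minimum of 20 FPKM or none, and pseudocounts of 0.1 and 5. Python 3.11.15, numpy 2.4.6, pandas 2.3.3 and matplotlib 3.10.9 were used.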

Additional observations from a re-analysis of the deposited data

How the results depend on the processing

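No paired analysis was possible because each age has 1 library. Without replicates no library could be left out within an age. Median-ratio scaling left 167 single-gene results (39 genes in 5 comparisons) with the same call, upper-quartile scaling 168, a pseudocount of 0.1 190 and one of 5 176. The 1 called gene to turn was Acvr1, P7 against E18.5, at -0.0283 with upper-quartile scaling. Counts of genes called are given next for the settings that moved them by over 1.5 times.

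E18.5 against E16.5, 1 gene higher and 4 lower as deposited: either scaling gave 4 higher and 0 lower, a minimum of 20 FPKM gave 1 lower, and the 4-fold threshold gave 0 and 0. P7 against E18.5, 20 higher and 1 lower: either scaling gave 7 and 2, and the 4-fold threshold gave 8 and 0; a pseudocount of 5 and a minimum of 20 FPKM each gave 0 lower. P28 against P7, 5 higher and 8 lower: a pseudocount of 5 gave 2 and 4, a minimum of 20 FPKM 3 and 5, and the 4-fold threshold 2 and 2, while either scaling gave 4 lower, as did scaling over the 3 libraries without E18.5, an alternative added after seeing the data. P7 against E16.5, 10 higher: the 4-fold threshold gave 4. P28 against E16.5, 9 higher and 1 lower: a minimum of 20 FPKM gave 4 and 0 and the 4-fold threshold 3 and 0; no minimum gave 2 lower, and median-ratio scaling with or without E18.5 and a pseudocount of 5 gave 0 lower. Genes highest at E18.5 numbered 3 as deposited, 11 with median-ratio and 13 with upper-quartile scaling, and genes highest at P7 numbered 26, 17 and 16. Class shares were the same with the largest entry of each symbol. Apart from these settings' own construction, the cause of each difference was not tested. Depth is unknown and there is no replicate, so a difference between 2 libraries cannot be told apart from one between animals or preparations.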

Other observations

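Pdgfra, the gene used for sorting, gives a scale within each library, but it differed between libraries itself. After median-ratio scaling it had 77.1 FPKM at E16.5 and 165 FPKM at E18.5, then 81.7 at P7 and 173 at P28. Ratios to Pdgfra carry these differences too. The ratio of Bmp3 to Pdgfra was 0.0371 at E16.5 and 0.0214 at E18.5, then 0.0870 at P7 and 0.598 at P28. For Tgfb2 it was 0.138 at E16.5 and 0.0746 at E18.5, then 0.374 at P7 and 0.0376 at P28, and for Tgfb3 0.101, 0.0507, 0.297 and 0.104 in order of age. On this scale Tgfb3 at P28 lay close to its E16.5 level, while it was called higher at P28 than at E16.5 by FPKM. The ratio of Tgfbr3 to Pdgfra was 0.209 at E16.5 and 0.448 at E18.5, then 0.247 at P7 and 0.178 at P28, so the E18.5 library was the highest here as well. That of Tgfbr2 to Pdgfra was 0.223, 0.163, 0.388 and 0.324 in order of age. It was thus not higher at each successive age, as Tgfbr2 was after median-ratio scaling. For Id3 the ratio was 0.701 at E16.5 and 0.356 at E18.5, then 0.789 at P7 and 0.294 at P28, a wider spread than after median-ratio scaling.

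Of the 59 pathway genes, 11 were listed at 0 in at least 1 library. Grem1 was the 1 of these at 1 FPKM or more elsewhere.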
